A study of Homo sapiens with 6 samples.

Results

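The phagocyte NADPH oxidase was examined through 5 genes chosen by name, CYBA, CYBB, NCF1, NCF4 and RAC2, in RNA sequencing of NOMO-1, an established line of human acute myeloid leukaemia cells. Of the 5, 4 were found among the 15059 genes of the expression table and NCF4 was not analysed here. All libraries came from cells that were transduced with lentivirus and grown in puromycin at 2 µg/ml for 1 to 2 weeks, with ribosomal RNA removed from total RNA. Control cells (sgNS+EV) had a guide RNA with no target plus a vector without insert. Knockout cells (sgMETTL16+EV) had that same vector but a guide directed at METTL16, and rescue cells (sgMETTL16+OE-METTL16) combined this guide with overexpression of METTL16. Each group had 2 libraries. METTL16 is a methyltransferase that places N6-methyladenosine on RNA. The sources used here do not say whether the knockout cells were 1 clone or a pool.

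The oxidase is the enzyme with which neutrophils and monocytes make superoxide to kill microbes. Its membrane part is a cytochrome of 2 chains, gp91phox (NOX2, from CYBB), which carries electrons from NADPH to oxygen, and p22phox (from CYBA), which stabilises gp91phox and gives the cytosolic subunits a docking site. In resting cells p47phox (from NCF1) and p40phox (from NCF4) wait in the cytosol with the small GTPase Rac2 (from RAC2), and they move to the membrane when the cell is stimulated. Loss of single phox subunits causes chronic granulomatous disease.

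NCF1 has 2 close copies on the same chromosome that are annotated as pseudogenes, NCF1B and NCF1C, and its values cannot be read without them. Of the 50-base windows of the main coding transcript NCF1-201 (1396 nt), 84.5% occur unchanged in a transcript of NCF1B or NCF1C, and of the 100-base windows 64.5% do. The stretch below, from GENCODE release 29, is shown because it holds the short GT repeat, in capitals, at which the copies are known to differ from the gene. The rest of the stretch is printed in lower case.
NCF1-201: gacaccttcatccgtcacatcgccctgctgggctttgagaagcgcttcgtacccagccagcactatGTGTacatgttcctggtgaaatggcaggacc
NCF1B-203: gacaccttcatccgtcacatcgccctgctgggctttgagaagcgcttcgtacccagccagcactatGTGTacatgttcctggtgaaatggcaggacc
NCF1B-201: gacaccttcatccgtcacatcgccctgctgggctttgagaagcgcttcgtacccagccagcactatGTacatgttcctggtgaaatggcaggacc
NCF1C-201: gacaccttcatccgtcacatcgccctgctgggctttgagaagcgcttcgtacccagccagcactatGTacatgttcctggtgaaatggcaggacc
The repeat has 2 GT units in NCF1-201 and 1 in NCF1C-201. Of the 3 NCF1B transcripts in the annotation, NCF1B-203 has 2 units, as the gene does, and the other two have 1. Reads across this stretch therefore do not all separate the gene from its copies, and the signal of NCF1, NCF1B and NCF1C is reported as uncertain in how it was divided. No 50-base window of RAC2-201 (1482 nt) occurs in a transcript of its relative RAC1, so these 2 genes can be told apart by such reads.

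Promoters were available for CYBB, CYBA and NCF1, and are shown because these genes lay higher in knockout than in control libraries (below). Each line gives the 250 bases before the RefSeq start site (GRCh38.p14), read in the direction of the gene. Capitals mark GGAA, the core recognised by ETS factors such as PU.1, and CCAAT, on either strand (as TTCC and ATTGG on the other), with touching matches run together.
CYBB (chrX:37779809-37780058, plus strand): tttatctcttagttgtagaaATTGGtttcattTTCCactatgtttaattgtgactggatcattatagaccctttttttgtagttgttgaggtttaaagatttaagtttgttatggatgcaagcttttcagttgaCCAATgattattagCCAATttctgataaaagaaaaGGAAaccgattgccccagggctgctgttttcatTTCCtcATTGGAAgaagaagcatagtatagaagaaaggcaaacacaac
CYBA (chr16:88651054-88651303, minus strand): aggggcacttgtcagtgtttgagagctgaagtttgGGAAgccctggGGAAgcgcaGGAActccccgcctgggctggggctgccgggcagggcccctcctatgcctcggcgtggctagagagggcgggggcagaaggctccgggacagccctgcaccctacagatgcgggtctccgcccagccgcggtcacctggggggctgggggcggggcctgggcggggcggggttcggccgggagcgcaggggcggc
NCF1 (chr7:74773761-74774010, plus strand): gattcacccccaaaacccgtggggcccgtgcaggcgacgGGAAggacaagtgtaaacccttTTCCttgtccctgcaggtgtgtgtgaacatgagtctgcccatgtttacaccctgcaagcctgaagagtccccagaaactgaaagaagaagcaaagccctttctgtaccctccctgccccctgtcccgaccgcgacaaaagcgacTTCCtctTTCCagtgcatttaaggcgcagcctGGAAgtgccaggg
The CYBB promoter had 34.0% G and C, NCF1 56.4% and CYBA 73.6%, beside a median of 58.0% over 35116 promoters. CCAAT matched 4 times in CYBB and not in the other two, and 32.0% of all promoters hold it. The GC box GGGCGG matched 6 times in CYBA and not in CYBB or NCF1, against 42.6% of promoters with at least 1 match. GGAA matched 4 times in CYBB, 3 in CYBA and 5 in NCF1, but 92.7% of promoters hold this short core. The longer PU.1 form GAGGAA, which contains that core, matched once in CYBB, 48 bases before the start site, and once in NCF1, 45 bases before it, and is in 23.6% of promoters. The interferon regulatory factor pattern, GAAA repeated after any 2 bases, matched at 2 positions in CYBB and 1 in NCF1, with 3.02% of promoters holding it. TATAAA (10.7% of promoters), CACGTG (6.34%), TTGCNNAA (9.05%) and TGATGNAA (3.14%), where N is any base, matched none of the 3. These matches, on both strands, describe letters and no bound site. The GENCODE start sites differ from those of RefSeq and lie inside these windows, at 37780011 for CYBB, 88651152 for CYBA and 74773962 for NCF1. By that annotation the end of each window, with both GAGGAA matches, falls within the gene. The same holds for every GGGCGG match of CYBA except that 130 bases before the RefSeq start site. It also holds for the CCAAT match of CYBB 42 bases before that site and for some GGAA matches of CYBB and NCF1.

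The value per gene and library, called the signal, is an RSEM abundance per length. It summed to between 597160 and 681928 per library. The spacing of low values put 1 unit of signal at about 101 to 112 reads for CYBB, whose main transcript has 4324 nt. METTL16 checked the labels, with a signal of 9.89 and 9.63 in control, 6.05 and 5.83 in knockout and 12.3 and 12.1 in rescue libraries. Of 12 measured myeloid markers, PTPRC (55.3 to 89.0), AIF1 (109 to 141), CD68 (29.7 to 63.4) and SPI1 (35.4 to 51.7) were well above 1 in every library, whereas CSF1R (0.817 to 2.91) and TYROBP (0.895 to 4.62) were low. CD14 and MPO, also on that list, were not analysed here. Lymphoid and erythroid or megakaryocytic markers were low or not analysed except NKG7, at 112 to 155. Control replicate 2 lay below the other libraries by median (log2 deviation of -0.10, against 0.0024 to 0.040).

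The members were expressed at very unequal levels. Per length, RAC2 and CYBA stood at the 96.2th and 96.6th percentiles of mean signal among all genes, NCF1 at the 43.6th and CYBB at the 16.3th. CYBB, the catalytic chain, was therefore the lowest of the 4 in every group. The 2 highest, RAC2 and CYBA, had overlapping values in the rescue group, and CYBA was the higher of them in both knockout libraries and the lower in control replicates 1 and 2.

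**Figure D1:**
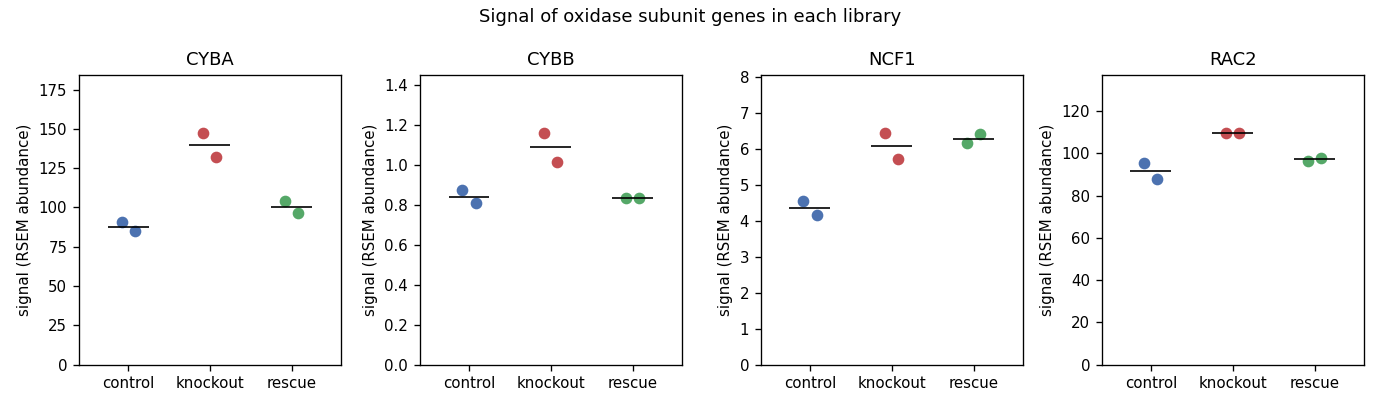
Signal (RSEM abundance, vertical axis from 0) of CYBA, CYBB, NCF1 and RAC2 in the control, knockout and rescue groups. Each point is 1 library and the bar is the mean of the 2. In each panel both knockout libraries lie above both control libraries, and for NCF1 the rescue libraries stay at the level of the knockout libraries.

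The first comparison asked how the oxidase genes differed between knockout and control cells. CYBA, NCF1 and RAC2 rose and CYBB did not pass the test. Among all 12734 genes tested, 26.2% rose and 13.5% fell (3333 and 1723 genes), a split that became 2924 and 3435 after median-ratio scaling and 3155 and 3181 after quantile normalization. The 3 of 4 tested members that rose are to be read against this background. Each of the 4 had both knockout libraries above both control libraries, which was so for 43.4% of all genes. CYBB reached the minimum signal only through the knockout libraries, where it was highest, so these counts lend no support of their own. In bulk RNA, a larger share of cells that express a gene and more of its RNA per cell cannot be told apart.

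CYBA (ENSG00000051523, chromosome 16, 88643283 to 88651152, minus strand) encodes p22phox and showed the largest difference of the 4. Signal values of 90.5 and 84.7 were measured for control, 147 and 132 in knockout and 104 and 96.5 in rescue. The 3 groups did not overlap, with rescue between the other two. Knockout libraries held 1.59 times the control mean (87.6 ± 4.10 against 140 ± 11.1, SD, n = 2), a difference of 0.67 on the log2(signal + 1) scale (SE 0.066, adjusted p = 5.17e-06, limma). Rescue lay 0.47 below knockout on that scale (-0.47, adjusted p = 0.000148), and 24.3% of the difference in mean signal between knockout and control was left. Rescue against control did not pass the test (0.19, 95% interval 0.052 to 0.33, adjusted p = 0.284, and 0.0472 to 0.852 over the alternatives).

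CYBB (ENSG00000165168, chromosome X, 37780011 to 37813461, plus strand) encodes gp91phox. Its signal was 0.874 and 0.810 in control, 1.16 and 1.01 in knockout and 0.835 and 0.837 in rescue. Both knockout libraries were the highest, and the control and rescue libraries overlapped. Each value rests on roughly 87 to 118 reads by the depth estimate. The mean in knockout was 1.29 times that in control, but the difference of 0.18 on the log2(signal + 1) scale had a 95% interval of -0.053 to 0.41 (adjusted p = 0.205). Adding 1 shrinks changes at this level, since the log2 ratio of the means was 0.37. With a pseudocount of 0.1 the difference was 0.33 (adjusted p = 0.209), after quantile normalization it was 0.058 (adjusted p = 0.580), and it passed under none of the alternatives run. Rescue against knockout gave -0.18 (interval -0.42 to 0.048, adjusted p = 0.214) and rescue against control -0.0046 (interval -0.24 to 0.23, adjusted p = 0.991).

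The ratio between the RNAs for the 2 chains of the cytochrome was described per library, and the chains themselves were not measured. Per length, CYBA had 103.5 and 104.5 times the signal of CYBB in control, 127 and 129.8 times in knockout and 124 and 115 times in rescue libraries. The ratio was thus lowest in control and did not overlap between knockout and control, and the difference in the ratio was not tested. C17orf62, the older symbol under which CYBC1 appears here, encodes the chaperone EROS that the cytochrome needs to mature. Its signal was 16.0 and 13.8 in control, 20.2 and 17 in knockout and 15.9 and 16.1 in rescue. It rose by 0.30 in knockout (adjusted p = 0.0172), and it no longer passed when control replicate 2 (0.154) or knockout replicate 1 (0.249) was left out.

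NCF1 (ENSG00000158517, chromosome 7, 74773962 to 74789315, plus strand) encodes p47phox, the organiser that carries the cytosolic complex to p22phox. Its signal was 4.55 and 4.17 in control, 6.46 and 5.71 in knockout and 6.17 and 6.42 in rescue. Knockout and rescue libraries overlapped and all 4 lay above the control libraries. The rise in knockout was 1.40-fold (log2(signal + 1) difference 0.40, SE 0.096, adjusted p = 0.00461), and the call was lost without knockout replicate 1 (adjusted p = 0.0775). Rescue against knockout differed by 0.044 (interval -0.16 to 0.25, adjusted p = 0.761), and turned to -0.019 when scaled to the sum without the 4 most abundant RNAs. Rescue lay 0.45 above control (1.45-fold, interval 0.24 to 0.65), with an adjusted p of 0.0782 that missed the threshold and ran from 0.00355 to 0.342 over the alternatives. It passed without knockout replicate 1 (0.0113) or knockout replicate 2 (0.0107), 2 fits in which 220 genes each rose, against 29 with all libraries.

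The copies were therefore read beside the gene. NCF1B (chromosome 7, 73220624 to 73235945, plus strand) had a signal of 1.97 and 2.12 in control, 4.04 and 3.85 in knockout and 2.70 and 2.34 in rescue. It rose by 0.70 in knockout (adjusted p = 0.000144) and fell by 0.49 in rescue against knockout (adjusted p = 0.00273). NCF1C (chromosome 7, 75156639 to 75172044, minus strand) had 2.64 and 2.15 in control, 4.89 and 3.74 in knockout and 3.65 and 3.67 in rescue. Its rise of 0.64 in knockout passed (adjusted p = 0.000854), and its difference of -0.18 in rescue against knockout did not (adjusted p = 0.269). The ratio of NCF1B to NCF1 was 0.433 and 0.508 in control, 0.626 and 0.673 in knockout and 0.437 and 0.364 in rescue libraries, so the knockout libraries were the highest. NCF1C to NCF1 was likewise highest in knockout, at 0.758 and 0.655, against 0.517 to 0.592 in the other 4 libraries.

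Summing the 3 entries, a choice made after the data were seen, lessens the question of how reads were divided among them. It does not remove that question, because the signal is per length and the annotated transcripts differ in length. They have 437 to 2354 nt for NCF1, 930 to 1516 nt for NCF1B and 1427 nt for NCF1C. The sum was 9.16 and 8.44 in control, 15.4 and 13.3 in knockout and 12.5 and 12.4 in rescue, and the groups did not overlap. It was 1.63 times as high in knockout as in control (log2(signal + 1) difference 0.65, adjusted p = 6.97e-05), a call kept under all 15 alternatives run. Rescue stood 0.46 above control (1.42-fold, interval 0.27 to 0.65, adjusted p = 0.0434), and 66.2% of the difference between knockout and control was left. That call was lost under 7 of 15 alternatives, among them the omission of control replicate 1 (adjusted p = 0.0831) and control replicate 2 (0.336). Rescue against knockout was -0.18 (interval -0.37 to 0.0018, adjusted p = 0.122), and passed after quantile normalization (0.0441) and when scaled to the sum without the 4 most abundant RNAs (0.0166).

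**Figure D2:**
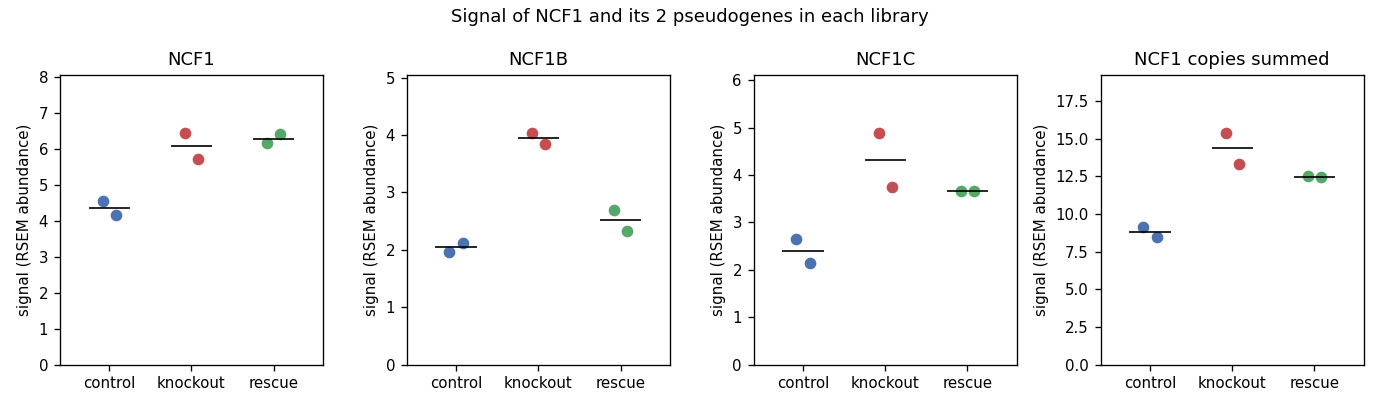
Signal (RSEM abundance, vertical axis from 0) of NCF1, its pseudogenes NCF1B and NCF1C, and the sum of the 3, in the control, knockout and rescue groups. Each point is 1 library and the bar is the mean of the 2. NCF1B in rescue (2.70 and 2.34) lies well below knockout, while NCF1 in rescue (6.17 and 6.42) does not.

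RAC2 (ENSG00000128340, chromosome 22, 37225261 to 37244448, minus strand) encodes the Rac GTPase of blood cells, which takes part in activating the assembled oxidase. Its signal was 95.3 and 88.0 in control, 110 and 110 in knockout and 96.5 and 97.8 in rescue. The groups did not overlap and the spread within knockout was small (109.7 ± 0.0988, SD, n = 2). The rise in knockout was 1.196-fold (log2(signal + 1) difference 0.26, SE 0.056, adjusted p = 0.00259), and 0.16 after median-ratio scaling (adjusted p = 0.00350). Rescue lay below knockout (-0.17, adjusted p = 0.0299), but this call was lost without a trend (0.108), and also when any 1 library of these groups was dropped, with 0.125 and 0.123 for knockout replicates 1 and 2 and 0.207 and 0.154 for rescue replicates 1 and 2. Rescue against control was at 0.083 (interval -0.037 to 0.20, adjusted p = 0.617), and -0.0039 after quantile normalization.

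RAC1, the Rac of most cell types, had a signal of 108 and 102 in control, 127 and 123 in knockout and 115 and 116 in rescue. It rose by 0.25 in knockout (adjusted p = 0.00231), or 0.16 after median-ratio scaling. The ratio of RAC2 to RAC1 was 0.885 and 0.864 in control, 0.865 and 0.891 in knockout and 0.839 and 0.847 in rescue, so it overlapped between knockout and control and was lowest in rescue.

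**Figure D3:**
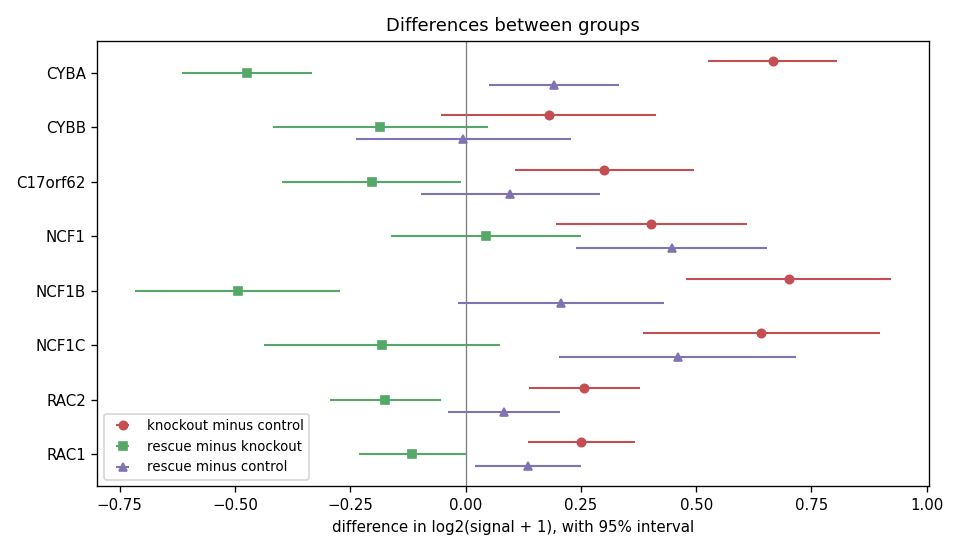
Differences in log2(signal + 1) with 95% intervals for 8 oxidase genes in the 3 comparisons, as marked by colour and symbol. Intervals that cross 0 include CYBB in all 3 comparisons, and rescue minus control is furthest from 0 for NCF1 and NCF1C.

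Rescue against knockout asked which of these differences were smaller where METTL16 was overexpressed. CYBA and RAC2 fell, 2 of 4 tested members, where 15.9% of all genes fell and 15.6% rose. For 3 of the 4, all but NCF1, both rescue libraries lay below both knockout libraries, as for 38.1% of all genes. CYBB is among the 3 but reached the minimum signal only through the knockout libraries, so it lends no support to this count. In rescue against control no member passed, where 0.228% of genes rose and 0.055% fell. For 3 of the 4, all but CYBB, both rescue libraries lay above both control libraries, as for 34.6% of all genes. The comparisons share libraries, so a high knockout value enters both the rise in one and the fall in the other.

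Genes around the oxidase were taken from lists chosen with earlier results of these data known, so their counts lend no support of their own. The counts are for knockout against control unless stated. Over all genes tested, 26.2% rose and 13.5% fell, with a median difference of 0.067. For counts in rescue against knockout, the shares of all genes were 15.6% risen and 15.9% fallen. The counts of each list are to be read beside these shares. Of 31 measured genes that activate the oxidase, 14 rose and 1 fell (median 0.16). PRKCZ, looked up after the count was seen, is among the 14 (0.34) but reached the minimum signal only through the knockout libraries. PRKCD, a kinase that phosphorylates p47phox, rose by 0.64, ARHGDIB, which holds Rac and related GTPases in the cytosol, by 0.51 and PTPRC, the phosphatase CD45, by 0.60. PIK3CG, a phosphoinositide 3-kinase downstream of chemoattractant receptors and looked up after the count was seen, was the 1 that fell, at -0.41 (adjusted p = 0.000906). In rescue against knockout 8 genes of this list fell and 2 rose, PIK3CG by 0.45 and RAC3, another Rac, by 0.35. The RAC3 call was lost when knockout replicate 2 (0.0976), rescue replicate 1 (0.0549) or rescue replicate 2 (0.0944) was dropped.

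Of 17 tested receptors that trigger the burst, 13 rose and 1 fell (median 0.37), where 26.2% and 13.5% of all genes did. FPR1, the receptor for formylated bacterial peptides, went from 3.50 and 3.22 to 14.5 and 12.3 (difference 1.72, adjusted p = 1.02e-07). CXCR2, a chemokine receptor, rose by 1.01, FCGR2A, an Fc receptor, by 0.66 and TNFRSF1A, a receptor of tumour necrosis factor, by 0.51. ITGB2, the beta chain shared by leukocyte integrins and looked up after the count was seen, fell by 0.39 (-0.39, adjusted p = 0.000151). Rescue against knockout had 10 fallen and 2 risen, ITGB2 by 0.43 and LTB4R by 0.37, the latter a call lost without rescue replicate 2 (0.0643).

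Most myeloid markers moved with these genes. Of 12 tested, 10 rose in knockout and none fell (median 0.67), where 26.2% and 13.5% of all genes did. LYZ was at 1.42, CD68 at 0.97 and FCER1G at 0.77. ITGAM and CD4, looked up after the count was seen, did not pass. ITGAM had 5.65 and 4.79 in control and 5.08 and 4.54 in knockout. CD4 had 75.9 and 68.5 in control and 69.6 and 66.9 in knockout. The summed signal of the markers was 446 to 488 in control, 681 to 696 in knockout and 550 to 564 in rescue. Of the 12 markers, 8 fell and 1 rose, CD4, in rescue against knockout, where 15.9% and 15.6% of all genes did. CSF1R, among the 10 and the 8, passed the filter only through the knockout libraries (2.91 and 2.59, against 0.817 to 1.08 elsewhere). Its rise and its fall therefore lend no support to these counts. In rescue against control LYZ alone passed, 0.85 above control (adjusted p = 7.45e-06). The lists are not separate, since these markers include PTPRC of the activation list, ITGAM of the receptor list and SPI1 of the transcription factors below. Lymphoid markers summed to 116 to 132 in control, 155 to 162 in knockout and 130 to 131 in rescue, nearly all of it NKG7. Of 4 tested, NKG7 (0.34) and CD2 (1.22) rose, while PAX5 (-0.039) did not pass. CD2 reached the minimum signal only through the knockout libraries, at 3.02 and 2.86, so its rise lends no support to the count. Of the 12 erythroid and megakaryocytic markers only KLF1 was tested (-0.20, adjusted p = 0.230), and their sum stayed between 1.30 and 2.28. Their part in the differences of the oxidase genes was not tested.

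Of 20 transcription factors known to act on CYBB and other oxidase genes, 12 rose and 2 fell (median 0.29), where 26.2% and 13.5% of all genes did. MEIS1, a homeobox cofactor, rose by 0.66, SATB1, a chromatin organiser, by 0.67, IRF8, the interferon regulatory factor of the monocyte line, by 0.57 and CEBPA, which directs granulocyte and monocyte fate, by 0.45. CEBPB, chosen once the count was known, fell (-0.24, adjusted p = 0.0219), and its call was lost without a trend (0.0534) and without control replicate 1 (0.0794), knockout replicate 1 (0.0547) or knockout replicate 2 (0.0837). In rescue against knockout 10 fell and 2 rose, among them CEBPB by 0.31, a call lost without rescue replicate 2 (0.0547).

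The next lists hold genes for the substrate, the products and the heme of the oxidase, and their counts are to be read beside the 26.2% of all genes that rose and the 13.5% that fell. Of 15 tested genes on the list named NADPH supply, 4 rose and 6 fell (median -0.092). That list holds enzymes in and around this supply, and NADPH itself was not measured. IDH1, the cytosolic isocitrate dehydrogenase, rose by 0.47, with PGD (0.26) and IDH2 (0.15, adjusted p = 0.0453, lost under 8 of 15 alternatives) looked up after the count was seen. ME2, the mitochondrial malic enzyme, fell by 0.42 and MTHFD2, of mitochondrial folate metabolism, by 0.38. In rescue against knockout 2 genes fell, among them IDH1 (-0.41), and 8 rose.

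Of 22 tested genes of oxidant use and disposal, 7 rose and 4 fell, with a median of 0.068 beside 0.067 for all genes. CAT, which encodes catalase, went from 76.1 and 73.4 to 133 and 130 (difference 0.81, adjusted p = 1.35e-07), GPX1, a glutathione peroxidase, rose by 0.55 and PRDX4 by 0.47. PRDX6, a peroxiredoxin with phospholipase activity, fell by 0.46. The other falls were looked up after the count was seen. HVCN1, the proton channel that offsets the charge moved by the oxidase, had 13.1 and 12.7 in control, 9.54 and 9.13 in knockout and 11.7 and 11.98 in rescue, a difference of -0.43 in knockout (adjusted p = 0.000688). GSR, glutathione reductase, was at -0.31 and TXN, thioredoxin, at -0.26. In rescue against knockout 7 fell and 5 rose, PRDX6 (0.44), TXN (0.36), GSR (0.33), HVCN1 (0.31) and SOD2 (0.22). The SOD2 call was lost when any 1 knockout or rescue library was dropped, with 0.110 and 0.194 for knockout replicates 1 and 2 and 0.137 and 0.235 for rescue replicates 1 and 2, and that of HVCN1 without knockout replicate 2 (0.0853), rescue replicate 1 (0.0527) or rescue replicate 2 (0.0907).

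The cytochrome carries heme, and 4 of 14 genes of heme synthesis and iron rose while 4 fell (median -0.037). ALAS1, which starts heme synthesis, rose by 0.43, ALAD, the next enzyme, by 0.44 and SLC40A1, the iron exporter, by 0.62, while FECH, which inserts the iron, fell by 0.43. SLC40A1 reached the minimum signal only through the knockout libraries (1.70 and 1.69, against 0.668 to 0.929 elsewhere). Neither its rise nor its fall in rescue against knockout therefore lends support to a count. FTH1 (0.19), PPOX (-0.34), SLC25A37 (-0.30) and TFRC (-0.19) made up the rest and were looked up after the count was seen. Without knockout replicate 1 the calls of FTH1 (0.425) and TFRC (0.0937) were lost, and without knockout replicate 2 (0.242) or control replicate 1 (0.144) that of PPOX. FTH1 also missed the threshold without control replicate 1 (0.0938) or control replicate 2 (0.146), under quantile normalization (0.0927) and median-ratio scaling (0.261) and without a trend (0.111), as did TFRC without a trend (0.0724). In rescue against knockout ALAS1 (-0.33), ALAD (-0.37) and SLC40A1 (-0.54) fell, and FECH (0.41), TFRC (0.38), UROS (0.36) and SLC25A37 (0.30) rose, the UROS call being lost without knockout replicate 2 (0.0677) or rescue replicate 2 (0.0999). Of the other NOX and DUOX enzymes and their partners, 4 of 10 were measured and only NOXA1, an activator of NOX1, was tested. It had 2.36 and 2.28 in control and 1.64 and 1.56 in knockout (-0.35, adjusted p = 0.0156), a call lost without knockout replicate 1 (0.0527) or knockout replicate 2 (0.0880).

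**Figure D4:**
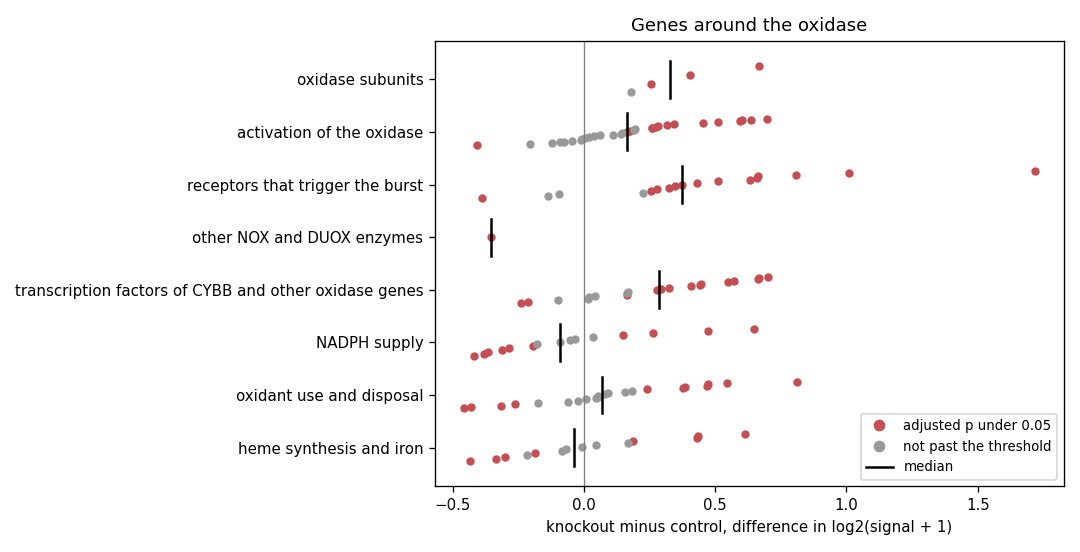
Knockout minus control difference in log2(signal + 1) (horizontal axis) for each tested gene of the oxidase subunits and 7 lists around the oxidase. Red points passed an adjusted p of 0.05, grey points did not, and the black bar is the list's median, which is 0.37 for the receptors and -0.092 for NADPH supply.

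The genes whose profile over the 6 libraries lay nearest to each member were sought by Euclidean distance between log2(signal + 1) values centred on the gene's own mean. Nearest to CYBA were PNMA1 (distance 0.072) and MYL6 (0.075), a myosin light chain, and nearest to RAC2 were DCAF12 (0.022) and SNRNP200 (0.025), a spliceosomal helicase. CYBB had PIK3C3 (0.030), a phosphoinositide 3-kinase also on the activation list, and TPM1 (0.031), a tropomyosin. Adding 1 shrinks the profile of CYBB, whose log2 ratio of knockout to control means was 0.37, against 0.21 for PIK3C3 and for TPM1. NCF1, whose rescue libraries stayed high, had the most distant neighbours, LOC101927572 (0.13) and SIRPB1 (0.15), a signal regulatory protein of myeloid cells. The mean profile of the 4 members lay nearest to G6PC3 (0.029), a glucose-6-phosphatase, PMF1 (0.035), SEC61B (0.037) and LTV1 (0.038). With 6 libraries in 3 groups such closeness is a description of these libraries.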

How the data were processed

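RNA sequencing covered 6 libraries of NOMO-1 cells in 3 groups of 2. The submitters' processing notes name STAR, RSEM and the build GRCh38. The values are used as the authors deposited them, 1 signal per gene and library, an RSEM abundance per length whose exact kind (TPM or FPKM) is not given in the sources used here. RSEM divides reads that fit several transcripts among them by estimated abundance, which bears on NCF1 and its copies.

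The test covered 12734 of 15059 genes, those whose signal reached 1 in 2 libraries or more. A limma model (3.58.1, R 4.3.3) with a trend was fitted to log2(signal + 1) of all 6 libraries, with 3 residual and 11.0 prior df. Each adjusted p is two-sided and was adjusted over these genes by Benjamini-Hochberg, and a call needs a value under 0.05. The fit was tested on simulated data. Adding 1 understates changes of low genes. Intervals are at 95%. The labels do not state separate cultures for replicates, and the p-values therefore cover the spread among these libraries alone, which may be technical.

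Depth was estimated from transcripts of up to 400 nt, whose signal times the length less 50 nt fell near whole multiples of 1 step per library. Between 71.4% and 87.5% of 96 to 118 such values lay within 0.15 of a whole number. The step was chosen for this match, so the read numbers are approximate.

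Coordinates are from GENCODE release 29 (GRCh38), and promoters from RefSeq (GRCh38.p14), 250 bases before the start site. Other steps ran in Python 3.11.15 (pandas 2.3.3, numpy 2.4.6), with figures from matplotlib 3.10.9. The members and the 11 gene lists were chosen with earlier results of these data known. Named genes were all members, METTL16, the core partners, up to 4 genes per other list with the smallest p in knockout against control, and the genes of nearest profile, 2 per member and 4 for the mean profile. A few genes that this rule names are not reported here. Any other gene named was looked up after its values were seen. The alternatives covered the pseudocount, the filter, 3 scalings, the trend, the samples in the fit, the replicate block and each library left out.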

Additional observations from a re-analysis of the deposited data

How the results depend on the processing

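The groups have 2 libraries each, and the normalization of the values is not stated. With quantile normalization 3181 genes fell in knockout against control, and with median-ratio scaling 3435 did. Rescue against knockout had 3104 genes risen with median-ratio scaling and 3946 fallen when scaled to the sum without the 4 most abundant RNAs. Rescue against control, with 29 risen and 7 fallen, gave 17 risen without a filter, 194 and 31 where the mean signal had to reach 5, 19 and 14 with quantile normalization, 6 and 0 with median-ratio scaling, 17 and 12 when scaled to the sum without the 4 most abundant RNAs, 5 and 4 without a trend, and 217 and 71 with only the 2 groups in the fit. The cause was not tested. With 1 library left out, counts ran from 2185 to 4120 risen and 1193 to 2257 fallen for knockout over control, from 1159 to 2491 and 1216 to 2534 for rescue over knockout, and from 6 to 220 and 1 to 73 in rescue against control, where the lone library is assumed to vary like the other groups. After quantile normalization the ratio of CYBA to CYBB was 98.9 in control and 142 in knockout, and that of RAC2 to RAC1 0.859 in knockout.

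Some differences near 0 changed sign. NCF1 in rescue against knockout was at -0.019 when scaled to the sum without the 4 most abundant RNAs and ranged from -0.032 (without knockout replicate 2) to 0.12 with 1 library left out. In rescue against control CYBB ranged from -0.030 to 0.020 (without control replicate 1) with 1 library left out, and RAC2 was at -0.0039 after quantile normalization. CYBA kept its rise in knockout and its fall in rescue against knockout under all 15 alternatives run, and RAC2 kept its rise in knockout.

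Replicate numbers are shared between groups but nothing in the labels says that they pair libraries. Deviations of same-numbered libraries correlated at -0.011 (control and knockout), -0.048 (control and rescue) and 0.10 (knockout and rescue) across genes. With the replicate block, 3600 genes rose and 1875 fell comparing knockout with control, 2214 and 2263 comparing rescue with knockout, and 299 and 83 in rescue against control. Under the block, rescue against control passed for NCF1 (adjusted p = 0.00382) and CYBA (0.0472).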
